A study of Saccharomyces cerevisiae with 15 samples.

Results

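The genes of glycogen synthesis and breakdown were followed in wild-type Saccharomyces cerevisiae, the budding yeast, exposed to 1.0 mM As(III). As(III), or arsenite, is the trivalent and more toxic form of inorganic arsenic. The 8 genes were those whose symbol in the platform annotation was GSY1, GSY2, GLC3, GLG1, GLG2, GPH1, GDB1 or GAC1, out of 5539 named genes. Each of the 8 was printed in 2 spots, so they took 16 of the 13056 spots. Total RNA from treated wild-type cells and from untreated wild-type cells was hybridised together on each 2-colour array, and the cells had been exposed for 15 min (3 arrays), 30 min (3 arrays), 1 h (6 arrays) or 18 h (3 arrays). The dye Cy5 marked the treated RNA on 12 arrays, and Cy3 marked it on the other 3, which were replicates 1, 3 and 6 at 1 h. Separate cultures are not mentioned in the labels, and the p-values therefore reflect only how these arrays scatter, possibly for technical reasons. When the untreated cells were harvested is not given either, so an effect of arsenite and an effect of a later harvest cannot be told apart.

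Glycogen is a branched polymer of glucose that yeast lays down as a store when growth slows, and it is broken down again when glucose is needed. The glycogenins Glg1 and Glg2 attach the first glucose residues to themselves, the glycogen synthases Gsy1 and Gsy2 lengthen the chains from UDP-glucose, and the branching enzyme Glc3 adds branches. Glycogen phosphorylase, Gph1, releases glucose 1-phosphate from the chain ends, and the debranching enzyme Gdb1 removes the branches that stop it. Gac1 is a regulatory subunit that brings the protein phosphatase Glc7 to glycogen synthase, and removal of phosphate activates the synthase.

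All values below are log2 ratios of treated over untreated cells, so 0 means no difference and 1 a doubling. The deposited values carried no statement of direction, which was read as likely treated over untreated from the dyes and signs. Were it the other way, every rise below would be a fall of the same size. Each array was centred on its median gene, so a ratio says how a transcript changed relative to the median gene, and gives no level of a transcript. Fitted ratios and their standard errors (SE) came from limma over all 5539 genes and 15 arrays with a dye effect for each gene, and a gene was called higher or lower at a Benjamini-Hochberg adjusted p under 0.05. Because dyes were swapped only at 1 h, the fitted values at the other times are the mean of 3 arrays less a dye effect learned at 1 h, and can lie outside those arrays. Replicate arrays correlated across genes with r of 0.72 to 0.89 at 1 h and 0.45 to 0.73 at 18 h. They correlated with r of 0.41 to 0.93 at 30 min and of -0.06 to 0.23 at 15 min, so the earliest time point is the least reliable. The arrays 15 min replicate 1 and 30 min replicate 1 stood apart, with values of another numeric form than the other Cy5 arrays and duplicate spots that correlated with r of 0.647 and 0.837, against 0.876 to 0.991 on the rest. Without both of them, the number of the 8 genes called was 0, 2, 6 and 5 in order of time, in place of 0, 1, 6 and 4. In RNA from a whole culture, a change in every cell and a change in some of the cells cannot be told apart.

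After 1 h, 5 of the 8 genes rose and 1 fell. GDB1 rose 2.24-fold, GPH1 1.73-fold, GLC3 1.64-fold, GSY2 1.45-fold and GAC1 1.42-fold, while GLG1 fell 1.97-fold. Among all genes 17.1% were called higher and 22.6% lower at this time, 39.7% in all. After 18 h, 4 of the 8 rose, against 5.33% of all genes, and none fell, against 3.16% (8.49% in all). GAC1 led with a 4.34-fold rise, and GDB1, GPH1 and GLC3 stood at 2.53-fold, 2.38-fold and 2.21-fold. Without the dye effect the log2 ratios of these genes at 18 h were 2.07, 0.91, 1.08 and 1.11 in the same order. At 30 min GDB1 alone was called, as higher, where 3.27% of all genes were called higher and 4.48% lower, 7.75% in all. At 15 min none of the 8 was called by limma, with 1 at an unadjusted p under 0.05, where 0.668% of all genes were called higher and 0.0181% lower, 0.686% in all. GSY1 and GLG2 were called at no time. In order of time, the median of the 8 fitted log2 ratios was 0.15, 0.43, 0.52 and 1.06, beside 0.07, 0.05, 0.02 and 0.03 over all genes. Away from 1 h these medians carry the dye effect learned at 1 h. On the arrays themselves, the median of the 8 ran from 0.16 to 0.84 at 1 h. It was 0.78, 0.82 and 0.66 at 18 h, below the fitted 1.06.

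**Figure D1:**
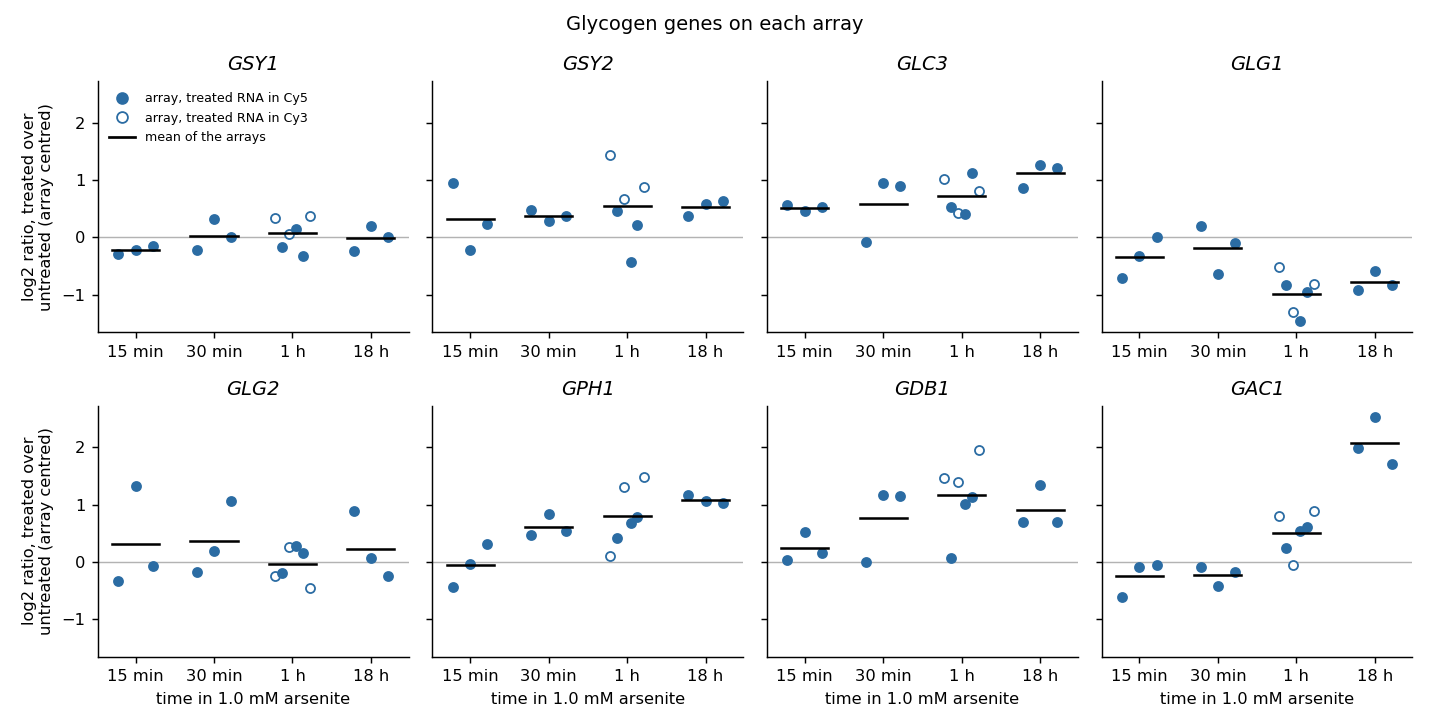
Log2 ratio of treated over untreated cells for each glycogen gene on each array, after centring on the median gene, against time in arsenite. Filled points are arrays whose treated RNA carried Cy5, open points those whose treated RNA carried Cy3, and black lines the mean of the arrays. GAC1 lay between 1.71 and 2.52 on the 3 arrays at 18 h, above every earlier array, and GLG1 was below 0 on all arrays at 1 h and 18 h.

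Of the initiator genes, GLG1 fell at 1 h and GLG2 was not called. For GLG1, which encodes one of the glycogenins, the log2 ratio was -0.72, -0.33 and -0.00 on the 15 min arrays and 0.19, -0.64 and -0.09 on the 30 min arrays. At 1 h it ran from -1.45 to -0.52 with a median of -0.89, below 0 on 6 of 6 arrays, and at 18 h it was -0.92, -0.58 and -0.84. GLG1 was the lowest of the 8 genes on every array at 1 h and 18 h. The fitted value at 1 h was -0.98 ± 0.16 (SE, limma adjusted p = 0.00015), and this call held in all 25 alternatives tried. At 18 h the fitted value of -0.68 ± 0.28 did not pass (limma adjusted p = 0.155), although the 3 arrays had a mean of -0.78 and passed without the dye effect (limma adjusted p = 0.0262). The 2 spots of GLG1 disagreed on 18 h replicate 3, where they read 0.09 and -1.77.

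GLG2, the other glycogenin gene, showed no such fall. Its log2 ratio was -0.34, 1.33 and -0.08 at 15 min, -0.17, 0.18 and 1.06 at 30 min and 0.89, 0.06 and -0.25 at 18 h, so at each of these times 1 array stood well above the others. At 1 h it ran from -0.45 to 0.28 with a median of -0.02, above 0 on 3 arrays and below 0 on 3. The fitted value at 1 h was -0.03, with a 95% confidence interval of -0.51 to 0.45, so a fall of the size seen for GLG1 lay outside it. Within each of the 6 arrays at 1 h GLG2 lay above GLG1, by 0.95 ± 0.61 on average (SD, n = 6) and by 0.29 to 1.74. An exact permutation test by sign flips gave p = 0.03125 (two-sided), the smallest that 6 arrays allow, and 0.125 after adjustment over the 4 pairs of genes compared. With only 1 pair at that smallest p, the adjusted value could not be lower, so the adjusted test could not decide on this difference. The same difference was 1.81, 0.64 and 0.59 on the 18 h arrays, on which a test could not go below 0.25. The value on 18 h replicate 3 rests on spots of GLG1 that disagreed. There the first spots read -0.33 for GLG2 and 0.09 for GLG1, the reverse order, and the second spots -0.17 and -1.77. With genes grouped by estimated brightness, counting up from the dimmest group, GLG2 lay in group 2 and GLG1 in group 6. Whether brightness bears on their difference was not tested.

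Of the synthase genes, GSY2 was called at 1 h and GSY1 at no time. GSY2 encodes the major synthase isoform. Its log2 ratio was 0.95, -0.23 and 0.23 at 15 min, 0.47, 0.28 and 0.37 at 30 min and 0.37, 0.59 and 0.62 at 18 h. At 1 h it ran from -0.42 to 1.44 with a median of 0.57, above 0 on 5 of 6 arrays, and was called higher (0.54 ± 0.17, limma adjusted p = 0.0191). The call also held without the dye effect (adjusted p = 0.0407), which leaves the 1 h mean unchanged because both orientations are equally represented there. At 1 h the 3 Cy3 arrays had a mean of 0.99 and the 3 Cy5 arrays a mean of 0.08, and with Cy5 arrays alone GSY2 was not called (adjusted p = 0.834). The GSY2 dye effect of -0.46 did not pass the test (limma adjusted p = 0.928). It placed the fitted values at 30 min (0.83) and 18 h (0.98) above all arrays of those times. Neither was called (limma adjusted p = 0.0973 and 0.0513), and without the dye effect they stood at 0.37 and 0.53. The GSY2 call at 1 h was also lost without replicate 1, 2 or 5 of that time, with adjusted p of 0.084, 0.082 and 0.0638, and at 18 h GSY2 gained a call in 6 of 25 alternatives, among them the fit with the replicate number as a block (1.00, adjusted p = 0.0471).

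GSY1, the gene of the minor synthase isoform, stayed near the median gene. It read -0.29, -0.23 and -0.16 at 15 min, -0.23, 0.31 and 0.01 at 30 min, -0.32 to 0.37 at 1 h and -0.25, 0.20 and 0.01 at 18 h, and no time lay clear of the others. Its fitted value at 1 h was 0.07, with a 95% confidence interval of -0.21 to 0.35. GSY2 exceeded GSY1 on 5 of the 6 arrays at 1 h, by 0.47 ± 0.55 on average (SD, n = 6), which did not pass (exact permutation p = 0.125, adjusted 0.167). On the 18 h arrays the difference was 0.62, 0.39 and 0.61. By estimated brightness GSY1 lay in group 1, the dimmest, and GSY2 in group 6, and whether this bears on their difference was not tested. The synthase genes are related in sequence, and how far a spot of one binds the transcript of the other is not known from these files.

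GLC3, the branching enzyme gene, was above 0 on nearly every array. Its log2 ratio was 0.56, 0.45 and 0.53 at 15 min, -0.08, 0.95 and 0.89 at 30 min and 0.87, 1.26 and 1.21 at 18 h, and at 1 h it ran from 0.40 to 1.12 with a median of 0.67. All arrays but 30 min replicate 1 lay above 0. The fitted value was 0.72 ± 0.16 at 1 h (limma adjusted p = 0.0022) and 1.14 ± 0.28 at 18 h (limma adjusted p = 0.021), and its dye means at 1 h were close, at 0.69 for Cy5 and 0.75 for Cy3. With Cy5 arrays alone, the 1 h value did not pass (adjusted p = 0.0533). At 30 min GLC3 was not called (0.62, limma adjusted p = 0.202). Without 30 min replicate 1, the array on which it lay below 0, it stood at 0.95 and was called (adjusted p = 0.0405). The call at 18 h was lost without replicate 2 or 3 of that time (adjusted p = 0.0856 and 0.0754), without 1 h replicate 2 (0.0502) and with arrays scaled to equal spread (0.0532), and the fitted value stayed between 1.06 and 1.11 in these.

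Of the breakdown genes, GPH1, which encodes the phosphorylase, was above 0 on every array from 30 min on. It read -0.44, -0.03 and 0.31 at 15 min, 0.47, 0.83 and 0.54 at 30 min and 1.17, 1.06 and 1.03 at 18 h. At 1 h it ran from 0.09 to 1.48 with a median of 0.74, above 0 on 6 of 6 arrays. The 18 h arrays lay above all arrays at 15 min and 30 min and within the range at 1 h. GPH1 was called at 1 h (0.79 ± 0.17, limma adjusted p = 0.00167) and 18 h (1.25 ± 0.30, limma adjusted p = 0.0188), and not at 30 min (0.78, limma adjusted p = 0.13), where it gained a call without 1 h replicate 1 (0.99, adjusted p = 0.0273). Without replicate 1, 2 or 3 of the 18 h arrays, the 18 h value stood at 1.21, 1.26 and 1.28 and lost its call (adjusted p = 0.0674, 0.062 and 0.0555). The fitted 1.25 at 18 h lay above all arrays of that time. Without the dye effect GPH1 stood at 1.08 at 18 h and was called (limma adjusted p = 0.0067).

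GDB1, the debranching enzyme gene, had the largest fitted rise of the 8 at 30 min and 1 h. Its log2 ratio was 0.03, 0.52 and 0.16 at 15 min, 0.00, 1.16 and 1.14 at 30 min and 0.69, 1.34 and 0.69 at 18 h. At 1 h it ran from 0.08 on replicate 2 to 1.94 on replicate 6, with a median of 1.26. The fitted values were 1.199 ± 0.33 at 30 min (limma adjusted p = 0.0378), 1.16 ± 0.19 at 1 h (limma adjusted p = 0.000142) and 1.34 ± 0.33 at 18 h (limma adjusted p = 0.0209). The GDB1 dye effect of -0.43 did not pass the test (limma adjusted p = 0.928), and the 1 h mean was the same with and without it. GDB1 averaged 1.59 over the Cy3 arrays and 0.73 over the Cy5 arrays of that time, and with Cy5 arrays alone it did not pass (adjusted p = 0.078), and the dye effect placed the 30 min value above all 3 of its arrays. Without the dye effect GDB1 stood at 0.77 at 30 min, not called (adjusted p = 0.0843), and at 0.91 at 18 h, called (adjusted p = 0.0487). The 30 min call failed in 12 of 25 alternatives, among them those without 30 min replicate 2 (1.00, adjusted p = 0.225) or 3 (1.01, adjusted p = 0.249).

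Duplicate spots of GDB1 disagreed on a pair of 18 h arrays. They read 0.00 and 1.39 on replicate 1 and 1.33 and 0.05 on replicate 3, against 1.35 and 1.32 on replicate 2. The call at 18 h held with the first spot alone and was lost with the second alone (1.27, adjusted p = 0.0509), and it was lost without 18 h replicate 2 (1.12, adjusted p = 0.108) or 1 h replicate 6 (1.25, adjusted p = 0.0537). With Cy5 arrays only or 18 h arrays only, GDB1 stood at 0.91 and did not pass either (adjusted p = 0.0507 and 0.0712). The difference between the phosphorylase and debranching enzyme genes at 1 h did not pass. GPH1 minus GDB1 averaged -0.37 ± 0.56 (SD, n = 6, exact permutation p = 0.125, adjusted 0.167). GPH1 minus GSY2, the phosphorylase against the major synthase, averaged 0.26 ± 0.86 (SD, n = 6) and ranged from -1.34 to 1.11 over these arrays (exact permutation p = 0.5625).

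GAC1, the gene of the phosphatase targeting subunit, was the late gene of the 8. It read -0.61, -0.10 and -0.06 at 15 min and -0.08, -0.42 and -0.18 at 30 min, below 0 on all 6 of these arrays. At 1 h it ran from -0.05 to 0.89 with a median of 0.57, above 0 on 5 of 6 arrays, and at 18 h it was 1.99, 2.52 and 1.71. The 18 h arrays lay above every array of the other times, and on each of them GAC1 was the highest of the 8 genes, where the next gene was GPH1 on replicate 1 (1.17), GDB1 on replicate 2 (1.34) and GLC3 on replicate 3 (1.21). The fitted value was 0.50 ± 0.16 at 1 h (limma adjusted p = 0.0203) and 2.12 ± 0.28 at 18 h (limma adjusted p = 0.000389). The 18 h call held in all 25 alternatives, in which the value ran from 1.89 to 3.11. The 1 h call was lost without replicate 1, 4, 5 or 6 of that time, with adjusted p of 0.0626 to 0.0967 and values of 0.42 to 0.48. It was lost too with Cy5 arrays alone (0.46, adjusted p = 0.147).

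GAC1 was also the 1 gene of the 8 whose ratio changed between neighbouring times. From 1 h to 18 h it rose by 1.61 ± 0.32 (3.06-fold, limma adjusted p = 0.0223), a difference that passed for 1.41% of all genes (1.05% higher and 0.361% lower). The call was lost without 1 h replicate 2, 4 or 5 or 18 h replicate 2 or 3, with adjusted p of 0.0526 to 0.102, and with the first spot alone (1.495, adjusted p = 0.0724). Fitted differences stayed at 1.39 to 1.80 when single arrays were left out. On 18 h replicate 3 the spots of GAC1 read 1.28 and 2.13. No gene of the 8, and 0% of all genes, passed from 15 min to 30 min or from 30 min to 1 h by limma, where 383 and 286 genes had an unadjusted p under 0.05. Of the 8, GLG1 (-0.90 ± 0.32) and GAC1 (0.69 ± 0.32) were among the latter.

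**Figure D2:**
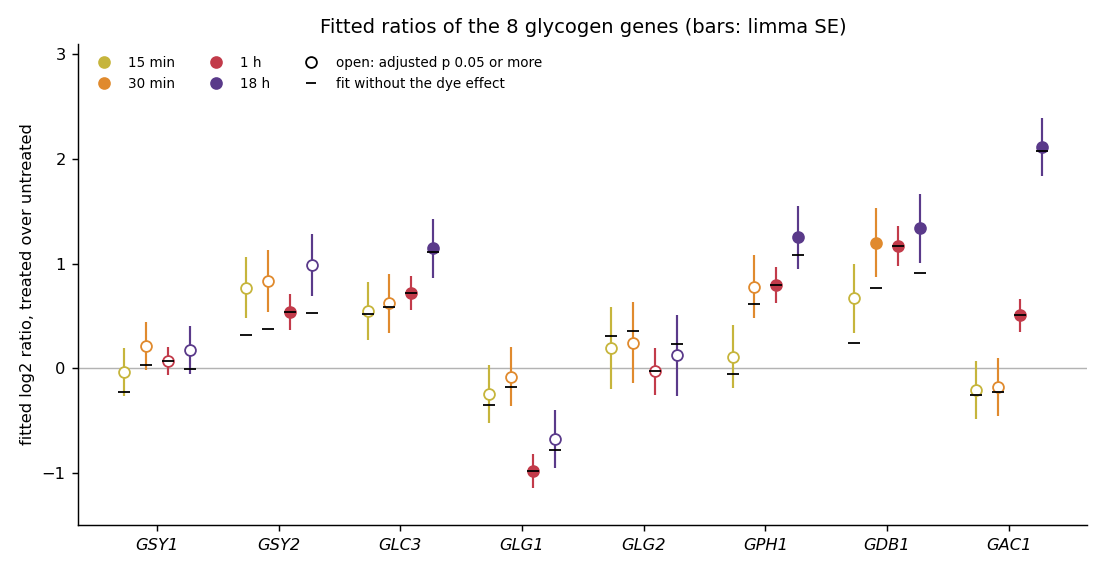
Fitted log2 ratio of treated over untreated cells for each glycogen gene, with bars of 1 limma SE, at 15 min, 30 min, 1 h and 18 h. Filled points passed an adjusted p of 0.05, open points did not, and black ticks give the fit without the dye effect, which lies well below the fitted value for GSY2 and GDB1 at 15 min, 30 min and 18 h.

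**Figure D3:**
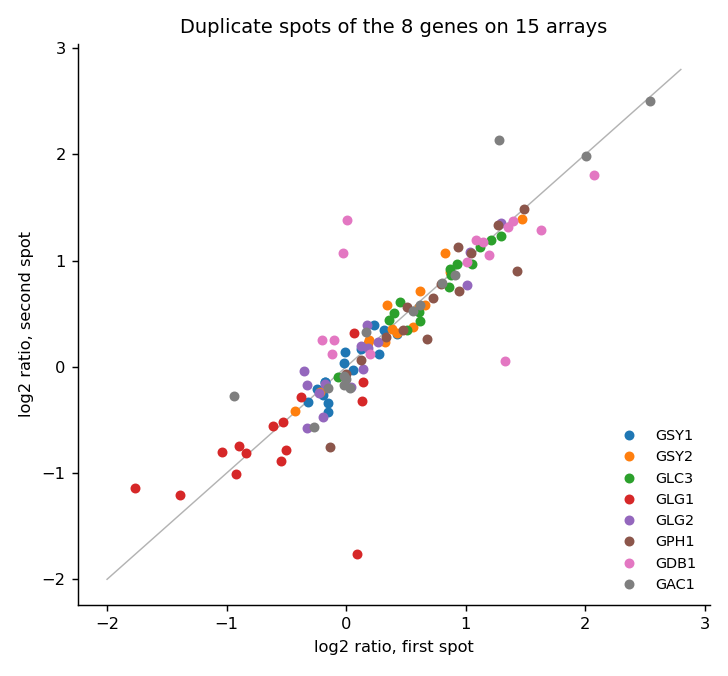
Centred log2 ratio of the first spot (horizontal) and the second spot (vertical) for each of the 8 genes on each of 15 arrays, with the line of equality. Most points lie near the line, and the farthest from it are GLG1 on 18 h replicate 3 (0.09 and -1.77) and GDB1 on 18 h replicates 1 and 3.

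Centring moves all genes of an array alike, so it sets where 0 lies. As deposited, the gene medians of the 6 arrays at 1 h averaged -0.55, and those of the 15 min, 30 min and 18 h arrays 0.24, -0.34 and 0.46. Without centring every fitted value at 1 h is lower by the same 0.55, and the scatter of the array medians, from -1.35 to 0.22, is added to the error. GLG1 was then the 1 gene of the 8 called at 1 h, while GDB1 stood at 0.61, GPH1 at 0.24 and GLC3 at 0.17, and GSY2 and GAC1 stood at -0.01 and -0.05. The 5 rises at 1 h are rises relative to the median gene. At 18 h the shift ran the other way, with every fitted value 1.00 larger without centring. Of the related genes described below, PGM2, GLC8, GIP2, PIG1, BCY1, SGA1, TPS1, TPS3 and ATH1 were likewise not called higher at 1 h without centring, while TSL1 and all the genes called lower at 1 h kept their calls.

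Of 6 genes of glucose phosphorylation and UDP-glucose supply, 1 rose and 2 fell at 1 h, where 17.1% of all genes were called higher and 22.6% lower, so these counts are near the background. At 30 min 2 rose, against 3.27% of all genes, and at 18 h 2 rose, against 5.33%. PGM2, the major phosphoglucomutase, which makes glucose 1-phosphate, rose by 1.28 ± 0.31 at 30 min, 1.05 ± 0.18 at 1 h and 2.03 ± 0.31 at 18 h (limma adjusted p = 0.0255, 0.000234 and 0.00119). Its minor counterpart PGM1 fell by 0.68 at 1 h. The hexokinase gene HXK2 fell by 1.52 at 1 h, and the glucokinase gene GLK1 rose by 1.95 ± 0.48 at 18 h (limma adjusted p = 0.0219), with a range of 0.64 to 3.02 on the 3 arrays. The GLK1 call held in 22 of 25 alternatives, and not without 18 h replicate 3, with equal spread or with 18 h arrays alone. PGM2 at 30 min kept its call in 19 of 25. It was lost without replicate 2 or 3 of that time or 1 h replicate 6, without centring, with equal spread and with 30 min arrays alone. Values ran from 1.205 to 2.95 for GLK1 and from 1.16 to 1.51 for PGM2 over all alternatives. UGP1, the enzyme that makes UDP-glucose, was called higher at 30 min (1.10, limma adjusted p = 0.0452). That call held in 9 of 25 alternatives, and the value stood at 0.67 without the dye effect.

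Of 8 genes of the Glc7 phosphatase and its other subunits, 3 rose and 1 fell at 1 h, against 17.1% and 22.6% of all genes. GLC8, a modulator of Glc7, rose by 1.08 ± 0.24 at 30 min (limma adjusted p = 0.0158) and by 1.13 ± 0.14 at 1 h (limma adjusted p = 8.66e-06). The 30 min call held in 20 of 25 alternatives. It was lost without 30 min replicate 2 or 3, without centring, with equal spread and with 30 min arrays alone. At 1 h GIP2, a relative of GAC1 thought to target Glc7, rose by 1.00 ± 0.21 and PIG1, another such relative, by 0.47, a call lost in 9 of 25 alternatives. REG1, which directs Glc7 in glucose repression, fell by 0.62, a call lost without 1 h replicate 3 or 4 (values of -1.17 to -0.43 over the alternatives). At 18 h GIP2 (1.54 ± 0.37, limma adjusted p = 0.0188) and PIG2 (1.44 ± 0.28, limma adjusted p = 0.00577), a gene of another targeting subunit, rose, where 5.33% of all genes were called higher. The GIP2 call at 18 h was lost without replicate 1 or 2 of that time (values of 1.28 to 2.53 over the alternatives). GLC7 itself was not called at any time, with 0.39 at 1 h and 0.27 at 18 h. The list's median was 0.42 at 1 h and 0.33 at 18 h.

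The cyclin-dependent kinase Pho85 phosphorylates glycogen synthase and so lowers its activity. Of the 5 genes for Pho85 and the cyclins Pcl6, Pcl7, Pcl8 and Pcl10, 3 fell at 1 h, against 22.6% of all genes, and none rose, against 17.1%. PCL10 fell by 1.04 ± 0.22, PCL8 by 1.02 ± 0.25 and PHO85 by 0.73 ± 0.17 (limma adjusted p = 0.00115, 0.00449 and 0.00252), and these calls held in all 25 alternatives. PCL10 was also called lower at 30 min (-1.29, limma adjusted p = 0.0466), a call held in 9 of 25 alternatives. Pcl8 and Pcl10 are the cyclins that direct Pho85 to glycogen synthase. PCL6 and PCL7 stood at 0.33 and 0.34, not called. At 18 h, where 8.49% of all genes were called, none of the 5 was called by limma, with PCL8 at -1.31 and PCL10 at -1.02.

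Of 8 genes of the Snf1 kinase and its activators, which favour glycogen storage, SIP2 alone was called, at 18 h (1.29 ± 0.29, limma adjusted p = 0.0143). That call held in 23 of 25 alternatives, and not without 18 h replicate 3 or with equal spread (values of 1.09 to 2.28 over the alternatives). Among all genes 5.33% were called higher at 18 h, and 39.7% were called at 1 h, where none of these 8 was. Of 11 measured genes of the cAMP and protein kinase A pathway, which counters glycogen storage, 1 rose and 4 fell at 1 h, against 17.1% and 22.6% of all genes, so the share called was near the background of 39.7%. RAS1 fell by 1.52 ± 0.19 and RAS2 by 0.60 ± 0.20, both GTPases that switch on cAMP synthesis, IRA2, their negative regulator, fell by 1.14 ± 0.16, and their exchange factor CDC25 fell by 0.48. BCY1, the inhibitory subunit of protein kinase A, rose by 0.79 ± 0.24 (limma adjusted p = 0.0144). RAS1 and IRA2 kept their calls in all 25 alternatives, while RAS2 lost its call in 5, BCY1 in 3 and CDC25 in 2, among them the fits without 1 h replicate 3, 4 or 6 for RAS2, 1 for BCY1 and 3 for CDC25. IRA2 was also lower at 30 min (-1.29) and 18 h (-1.05), calls held in 20 and 18 of 25 alternatives.

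Of 6 genes of stress and post-diauxic transcription factors and their kinases, MSN4, which with Msn2 activates genes through stress response elements, was the 1 called, at 18 h (1.10 ± 0.30, limma adjusted p = 0.0339, held in 17 of 25 alternatives). Among all genes 5.33% were called higher at 18 h, and 39.7% were called at 1 h, where none of these 6 was. MSN4 stood at -0.40 at 1 h and rose from then to 18 h by 1.498 ± 0.35 (limma adjusted p = 0.0426, held in 11 of 24 alternatives), where 1.05% of all genes were called higher. SGA1, a glucoamylase that degrades glycogen in sporulating cells, rose by 0.94 ± 0.26 at 1 h (limma adjusted p = 0.00971), held in 22 of 25 alternatives and not without 1 h replicate 6.

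Trehalose, the other glucose store of yeast, shares UDP-glucose with glycogen. Of its 7 genes of synthesis and breakdown, 1 rose at 30 min, 4 at 1 h and 2 at 18 h, and none fell, beside 1, 5 and 4 of the 8 glycogen genes and 3.27%, 17.1% and 5.33% of all genes that rose at these times. The list's median of 0.72, 0.75 and 0.80 at 30 min, 1 h and 18 h stood beside 0.43, 0.52 and 1.06 for the glycogen genes. The medians at 30 min and 18 h carry the dye effect learned at 1 h, and the difference between the lists was not tested. TSL1, a subunit of the synthase complex, rose most, by 2.14 at 30 min, 2.03 ± 0.28 at 1 h and 1.80 at 18 h, calls held in 21, 25 and 19 of 25 alternatives. TPS1 and TPS3, of the same complex, rose by 0.76 and 0.75 at 1 h, and ATH1 and NTH1, which encode trehalases, by 0.75 at 1 h and 0.98 at 18 h, with 12 and 9 of 25 alternatives keeping these last calls. No gene of the trehalose list was called from 1 h to 18 h, where 1.41% of all genes were called, so this count is near the background.

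**Figure D4:**
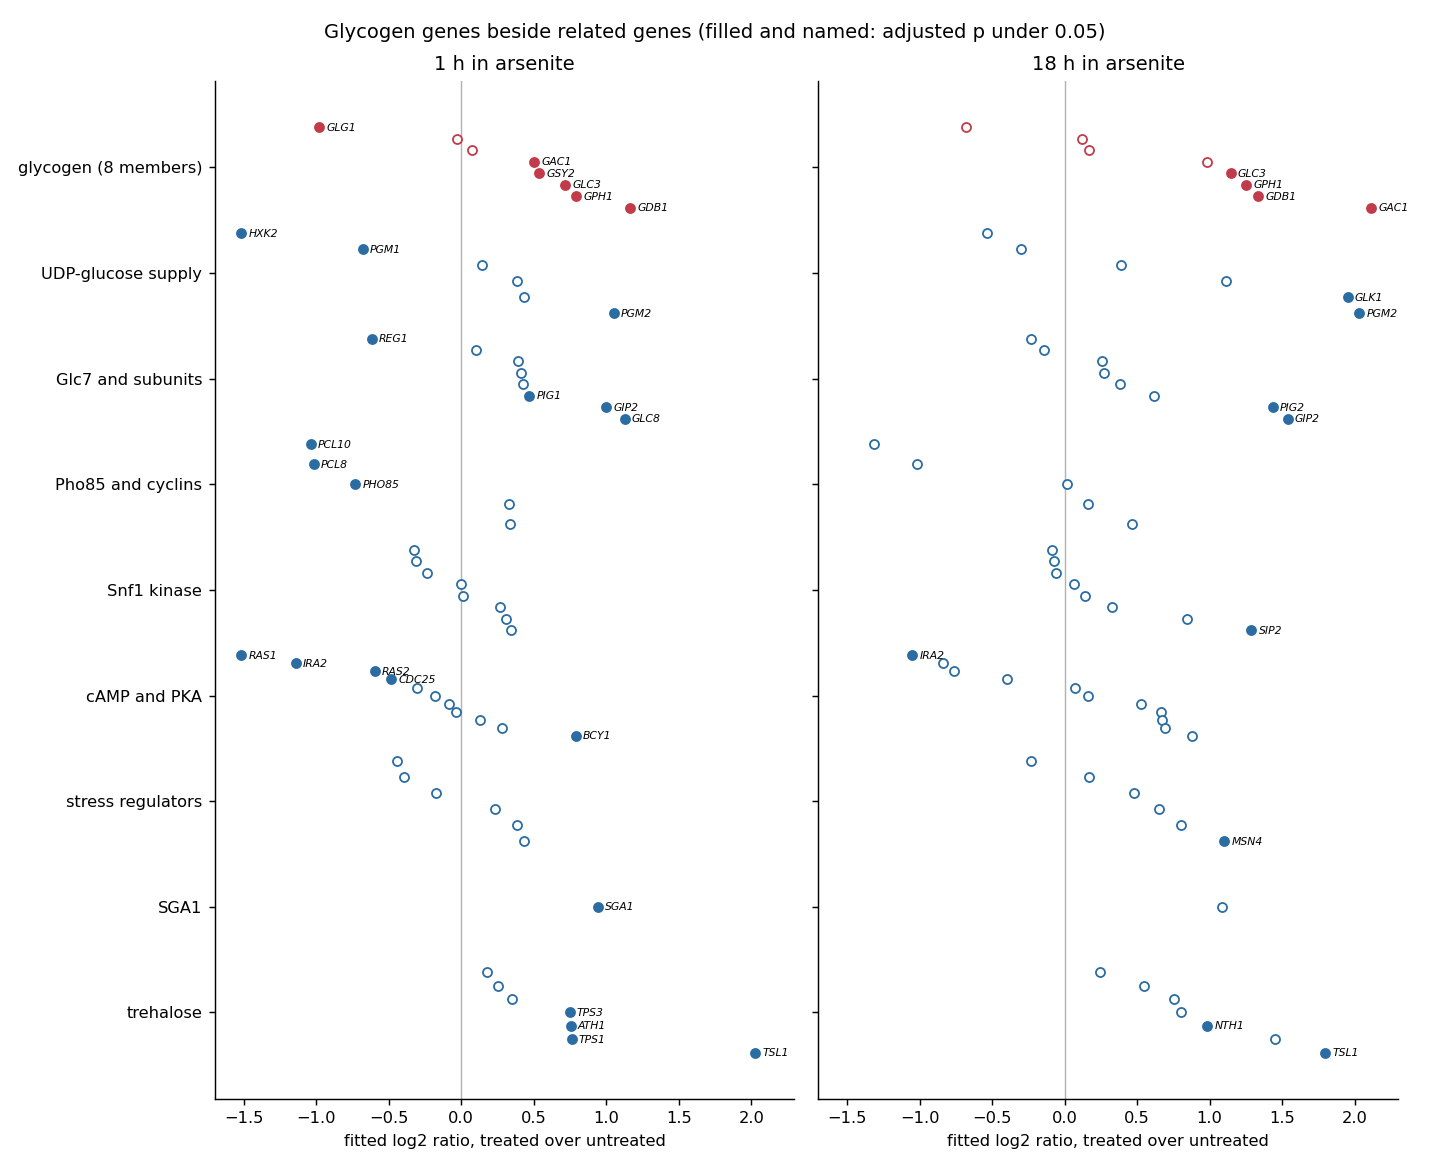
Fitted log2 ratio of treated over untreated cells (horizontal) for the 8 glycogen genes (red) and for the genes of 8 related lists (blue) at 1 h (left) and 18 h (right). Filled points with a name passed an adjusted p of 0.05. At 1 h the filled points below 0 are GLG1, HXK2, PGM1, REG1, PHO85, PCL8, PCL10 and 4 cAMP pathway genes, and at 18 h GAC1, PGM2 and GLK1 lie farthest above 0.

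The 8 genes did not share one pattern over the arrays. As a description over 15 arrays, which differ in quality, the closest members were GSY1 and GDB1 (Pearson r = 0.77) and GPH1 and GDB1 (0.62), and the least alike were GSY2 and GLG2 (-0.58). GAC1 lay closest to GLC3 (0.60) and GPH1 (0.55), and the highest r of GLG1 with another member was 0.09. Outside the 8, the genes most like each member by Pearson r over the same arrays were GPT2 for GAC1 (0.92), OST6 for GLG1 (0.85), POL2 for GLG2 (0.93), GIS1 for GSY2 (0.87) and JLP1 for GSY1 (0.86). PAM17 was most like GDB1 (0.89), PET20 most like GPH1 (0.85) and MHO1 most like GLC3 (0.80). GPT2, an acyltransferase of glycerolipid synthesis, had fitted values of 0.38, 0.70, 1.77 and 4.10 in order of time, beside -0.21, -0.18, 0.50 and 2.12 for GAC1. OST6, a subunit of oligosaccharyltransferase, had -0.20, -0.44, -1.91 and -0.97, with its lowest value at 1 h as GLG1 had. Because GPT2 and OST6 were picked by their correlation over these same arrays, a likeness in course follows from the choice. The second genes in this order were TDA1 for GAC1 (0.91), ERG12 for GLG1 (0.83), BSC4 for GLG2 (0.93), EPO1 for GSY2 (0.86) and MET5 for GSY1 (0.82). For GDB1 the second was JLP1 (0.88), for GPH1 YFR057W (0.85) and for GLC3 AZF1 (0.80).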

How the data were processed

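RNA of arsenite-treated and untreated wild-type yeast was compared on 15 2-colour spotted arrays. The authors deposited log2 ratios, 1 per spot and array. How they scanned, corrected and normalised the arrays is not given in the sources used here. On 10 arrays every value could be written as log2 of 1 whole number over another (relative tolerance 5e-14). On the 3 Cy3 arrays of treated RNA, zeros carried a minus sign (30, 5 and 23 zeros), as a sign turned before deposit would leave, and few values were such ratios. This also held for 15 min replicate 1 and 30 min replicate 1, without minus signs on zeros. The log2 scale was assumed for these 5 arrays. Signal over background is not known, so precision is limited by how many arrays there are.

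Here 11138 spots had 1 gene name in the platform annotation, which can be old, 0 had several and 1918 had none. Gene IDs of 11128 were found in the R64 gene table, and 0 symbols changed. Spots of a gene were averaged, arrays were centred on the median over genes, and limma 3.58.1 in R 4.3.3 (lmFit, eBayes, 10 residual and 5.41 prior degrees of freedom) was fitted with a mean per time and a dye effect per gene. A run on simulated data, without dye effects or brightness trends, served only as a check of the code and bears on no call here. Pairs of genes were compared on the 6 arrays at 1 h by exact sign flips. The alternatives were no dye effect, no centring, equal spread, a brightness trend removed (lowess, span 0.4), Cy5 arrays only, each time alone, either spot alone, the replicate number as a block and each array left out in turn. Brightness was estimated from the arrays of whole-number ratios. The median log2 ratio of the brightest group of genes less that of the dimmest ran from -1.80 to -0.06 at 1 h and from -1.96 to 0.64 over all arrays. A fit without 15 min replicate 1 and 30 min replicate 1 was chosen after seeing the data.

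The 8 genes and 8 lists of related genes were chosen with earlier results of these data known. Named were all 8, up to 3 called genes of each list in each direction with the largest change, and the 2 other genes most like each of the 8. Where few genes of a list were called or a whole complex was described, uncalled members were named after their values were seen, and CDC25 and TPS3 were named as the fourth of their list called in 1 direction. No sequences are shown.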

Additional observations from a re-analysis of the deposited data

Results flagged for a closer look

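GAC1, the Glc7 targeting subunit, differed between time points by a direct test of the difference: its log2 ratio was 1.61 higher at 18 h than at 1 h (limma adjusted p = 0.0223), with values of 1.99, 2.52 and 1.71 at 18 h and -0.05 to 0.89 at 1 h. The spots of GAC1 differed by 0.85 on 18 h replicate 3, and the difference passed with the second spot alone and not with the first. No array of the 6 at 1 h stood apart from the others for any of the 8 genes by Dixon's test, and groups of 3 arrays were not tested.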

How the results depend on the processing

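Of 12 called values of the 8 genes, 299 alternative fits kept the call in 253, and of 44 uncalled values 12 of 1077 alternative fits gained one (a sign change between uncalled values was not counted). The number of the 8 genes called at 30 min, 1 in the fit reported, was 0 with no dye effect, with arrays as deposited, with equal spread, with Cy5 arrays only, with that time alone and with either spot alone, 2 with the brightness trend removed and 2 without 15 min replicate 1 and 30 min replicate 1 together, and 0 to 2 when single arrays were left out. The number at 1 h, 6, was 1 without centring, 2 with Cy5 arrays only and 4 to 6 when single arrays were left out. At 18 h it was 4, and 1 to 5 when single arrays were left out (1 without 18 h replicate 2 and 2 without 18 h replicate 3). From 1 h to 18 h it was 1, and 0 with the first spot only and 0 to 1 when single arrays were left out. Without centring GSY2 (-0.012) and GAC1 (-0.047) turned sign at 1 h, as any value between 0 and 0.55 does when every gene is lowered by 0.55. The replicate block (consensus correlation -0.053) gave 1, 6 and 5 of the 8 called at 30 min, 1 h and 18 h, with GSY2 the gene added. Same-numbered replicates did not consistently deviate together (18 pairs, r of -0.55 to 0.64, 6 over 0.1), so the numbers were not taken to pair arrays. Some did: replicates 1 at 15 min, 30 min and 1 h had r of 0.44 to 0.58, and replicates 2 at 15 min and 30 min 0.64. With 18 h replicate 1, those replicates 1 had r of -0.55 to -0.42. Differences between the 4 gene pairs passed in none of the 10 alternatives run for them, and 5 arrays cannot go below an exact p of 0.0625. The pairs were not compared with the brightness trend removed.

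Counts over all genes moved more: higher and lower genes ran from 4 to 65 and 0 to 7 at 15 min (37 and 1 in the fit reported), 15 to 381 and 0 to 702 at 30 min (181 and 248), 160 to 1267 and 894 to 1392 at 1 h (946 and 1251) and 147 to 523 and 8 to 463 at 18 h (295 and 175). From 1 h to 18 h they ran from 8 to 1014 and 1 to 114 (58 and 20). From 15 min to 30 min they reached 10 and 203, and from 30 min to 1 h 21 and 5, in place of 0. The cause of these changes was not tested.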
